A study of Mus musculus with 8 samples.

Results

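The mouse genes of cytochrome P450 families 1, 2 and 3 were examined in liver RNA-seq of WT and HRD1Alb mice. A gene was a member when its symbol was Cyp followed by 1, 2 or 3, a single letter and a number, which left out the steroid, retinoid and bile acid P450s with higher family numbers. The count files held 58 such genes among 23337 gene symbols. Of these, 48 had at least 10 counts in at least 2 of the 8 samples and were tested, among 14379 genes tested in all. The other 10 members (Cyp2b19, Cyp2b23, Cyp2c65, Cyp2c66, Cyp2d34, Cyp2j8, Cyp2j11, Cyp2j12, Cyp2j13 and Cyp2w1) never exceeded 12 counts in a sample, and 4 of them had no count at all. The study compared livers of C57BL/6 mice at 12 weeks of age in 4 groups of 2 samples, namely WT fasted, HRD1Alb fasted, WT refed and HRD1Alb refed. HRD1Alb mice carry floxed Hrd1 and a Cre transgene driven by the albumin promoter, which is active in cells of the hepatocyte lineage, so blood-derived, endothelial and stellate cells of the liver keep the gene. The fast was overnight, and refed mice had food for 4 h after it. The labels call the deleted genotype Hrd1-/- and the controls WT, and they do not give the Cre status of the controls or the sex of the mice. The paper describes its control mice as floxed without Alb-Cre, and reports loss of HRD1 mRNA and protein in HRD1Alb liver. It does not say whether the sequenced livers were among those checked.

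Cytochrome P450 enzymes are heme proteins anchored in the endoplasmic reticulum membrane, where they insert oxygen into drugs, steroids, fatty acids and environmental chemicals with electrons passed on by cytochrome P450 reductase. Families 1, 2 and 3 carry most of the drug metabolism of the liver, and ligand-activated receptors such as the aryl hydrocarbon receptor, CAR and PXR induce several of them. In the mouse, tandem gene duplications expanded the 2a, 2b, 2c, 2d, 2j and 3a subfamilies, and many of the copies are expressed mainly in one sex under the control of the growth hormone pattern. HRD1 is a ubiquitin ligase of the same membrane that marks proteins for degradation.

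The genes that separated the genotypes most have close copies, so their sequences are given before their values. Cyp2b13 and Cyp2b9 lie beside each other on chromosome 7 of GRCm38, Cyp2b13 at 7:26061497-26096197 and Cyp2b9 at 7:26173411-26210661, both on the plus strand, and Cyp2b10 lies before them at 7:25897620-25926624. Over the 1473 coding bases, Cyp2b9 differed from Cyp2b13 at 107 positions (92.7% identity) and Cyp2b10 differed from Cyp2b13 at 167 (88.7%). Coding bases 568 to 807 of the GENCODE M21 transcripts are shown because reads can only be assigned to a copy where the copies differ, and capitals mark those places. Capitals in Cyp2b13 and Cyp2b9 mark the 31 bases that differ between these 2 genes, and capitals in Cyp2b10 mark its 41 differences from Cyp2b13.
Cyp2b13: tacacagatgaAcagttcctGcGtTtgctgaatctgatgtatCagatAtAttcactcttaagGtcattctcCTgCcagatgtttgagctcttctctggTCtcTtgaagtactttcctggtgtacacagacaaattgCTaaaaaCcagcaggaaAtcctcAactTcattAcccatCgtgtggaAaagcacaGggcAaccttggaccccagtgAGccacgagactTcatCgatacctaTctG
Cyp2b9: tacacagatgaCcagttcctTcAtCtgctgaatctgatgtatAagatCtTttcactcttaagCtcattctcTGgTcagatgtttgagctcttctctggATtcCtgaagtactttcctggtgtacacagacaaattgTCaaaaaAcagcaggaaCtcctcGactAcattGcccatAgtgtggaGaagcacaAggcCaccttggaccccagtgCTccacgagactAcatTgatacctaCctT
Cyp2b10: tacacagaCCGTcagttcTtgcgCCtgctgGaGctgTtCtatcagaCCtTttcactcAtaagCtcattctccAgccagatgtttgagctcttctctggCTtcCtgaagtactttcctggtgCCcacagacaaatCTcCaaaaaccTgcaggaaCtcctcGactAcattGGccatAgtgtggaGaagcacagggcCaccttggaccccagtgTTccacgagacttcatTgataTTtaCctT
Differences are spread along the stretch. Of all 75-base windows of its transcript, Cyp2b13 shared 16.4% with other annotated genes, 11.2% with the overlapping gene model Gm45225, and Cyp2b9 shared 5.16%. The read length is not given in the sources used here, so 75 bases serve as an illustration.

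Upstream of their starts, the same 2 genes were almost identical. The 250 bases before the start (RefSeq, GRCm38.p6, plus strand) differed at 2 positions, shown in capitals, which is 99.2% identity.
Cyp2b13 7:26061245-26061494: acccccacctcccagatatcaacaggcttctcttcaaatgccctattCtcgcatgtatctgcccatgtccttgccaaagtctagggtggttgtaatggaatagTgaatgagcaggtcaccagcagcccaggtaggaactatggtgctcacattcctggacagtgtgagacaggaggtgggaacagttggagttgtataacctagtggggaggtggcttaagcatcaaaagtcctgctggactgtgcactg
Cyp2b9 7:26173159-26173408: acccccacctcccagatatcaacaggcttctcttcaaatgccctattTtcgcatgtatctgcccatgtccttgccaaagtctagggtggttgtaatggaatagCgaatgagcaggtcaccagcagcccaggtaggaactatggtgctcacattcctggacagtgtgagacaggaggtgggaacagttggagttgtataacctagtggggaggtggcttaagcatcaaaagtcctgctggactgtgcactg
Cyp2a22 and Cyp2a12 form a further pair with like upstream sequences and, as the counts show, unlike levels. Cyp2a22 (7:26931631-26939384, minus strand) and Cyp2a12 (7:27029081-27037375, plus strand) lie on opposite strands with their starts towards each other. When the windows were shifted by 11 bases, 239 bases could be compared and 27 of them differed (88.7% identity), again in capitals.
Cyp2a22 7:26939387-26939625: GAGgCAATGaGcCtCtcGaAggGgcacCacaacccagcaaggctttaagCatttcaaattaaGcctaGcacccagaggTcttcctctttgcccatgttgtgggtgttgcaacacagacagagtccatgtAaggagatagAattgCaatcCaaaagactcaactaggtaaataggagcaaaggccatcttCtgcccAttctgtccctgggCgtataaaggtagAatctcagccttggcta
Cyp2a12 7:27028840-27029078: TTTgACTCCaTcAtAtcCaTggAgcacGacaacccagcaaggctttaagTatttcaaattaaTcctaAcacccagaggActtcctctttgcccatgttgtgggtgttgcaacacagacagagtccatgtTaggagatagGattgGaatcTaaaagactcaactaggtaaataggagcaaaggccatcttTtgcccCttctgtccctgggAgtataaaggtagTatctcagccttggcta
The letters of 4 short motifs were searched on both strands of the windows from 250 bases before to 50 bases after the start, which RefSeq gives for 50 of the 58 members. TATAAA was found in 49.1% of the 53 windows of the members and in 13.6% of all 32851 windows. TGTTTAC, the FOXA core, was in 13.2% against 3.65%, ATCAAT, the ONECUT core, was in 18.9% against 7.54%, and TTCNNNGAA, the STAT5 core, was in 3.77% against 8.3%. None of these letters occurred in the windows of Cyp2b13, Cyp2b9 and Cyp2b10, while Cyp2a22 had TATAAA at -28 and Cyp2j5 had TGTTTAC at -249 relative to the start.

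Library totals ranged from 40210576 to 49117080 counts, and 3 counts, taken as the limit of detection, corresponded to 0.0508 to 0.0788 CPM (a gene's count divided by the library's effective total and multiplied by a fixed factor). All levels are CPM after TMM normalization, which scales the libraries by factors of 0.837 to 1.22. Those factors were lower in the WT than in the HRD1Alb libraries, so that without them the median gene would lie 0.36 (log2) higher in fasted and 0.26 higher in refed HRD1Alb liver, instead of -0.02 and 0.05. Hrd1, listed as Syvn1, was at 111 and 99.8 CPM in fasted WT, 32.6 and 31.5 in fasted HRD1Alb, 637 and 305 in refed WT and 453 and 132 in refed HRD1Alb liver. In fasted liver both HRD1Alb values lay below both WT values, whereas the refed libraries overlapped. The difference passed the test in neither condition, and the edgeR adjusted p was 0.17 for the fasted and 0.389 for the refed samples. Counts over the whole gene cannot separate the deleted exons, so the refed genotypes below rest on the labels alone. The 2 refed HRD1Alb libraries differed more from each other than the replicates of any other group did, and with 2 libraries it cannot be told which one deviates. The ratio of replicate 2 to replicate 1 correlated with transcript length across 13013 genes (Spearman rho -0.505, against -0.118 to 0.0103 in the other groups), a description only, as genes are not independent, and 11 of the 48 members differed at least 2-fold between these 2 libraries against 5 to 8 in the other groups. No preparation date or other batch is labelled. The hepatocyte markers Alb, Apoa1, Apob, Ttr, Trf and Fgb were abundant in every library (lowest 1504 CPM).

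**Figure D1:**
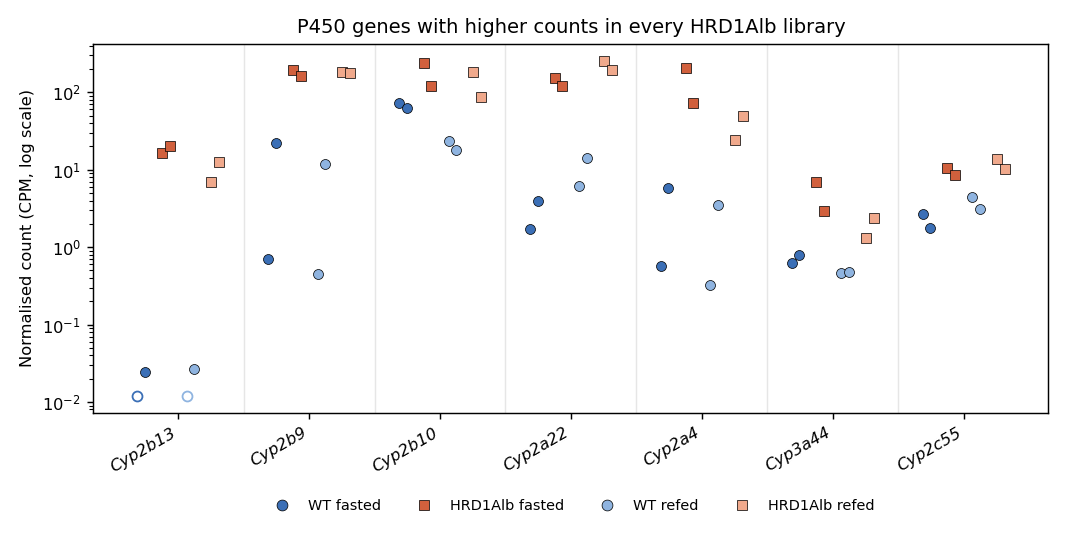
TMM-normalized CPM on a log scale for 7 P450 genes, one marker per library (circles, WT; squares, HRD1Alb; dark, fasted; light, refed), with open circles at the bottom for libraries with 0 counts. All HRD1Alb libraries lie above all WT libraries for each gene, and the 2 WT libraries of a condition differ over 10-fold for Cyp2b9 and Cyp2a4.

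Expression of 3 members was higher and that of 1 member was lower in fasted HRD1Alb than in fasted WT liver. The 3 were Cyp2b13, Cyp2a22 and Cyp2c55, and the 1 was Cyp2j5. Among all tested genes, 0.904% were called higher and 0.431% lower in this comparison. After refeeding, 4 members were higher (Cyp2b13, Cyp2a22, Cyp2b10 and Cyp2c55) and 9 were lower in the libraries labelled HRD1Alb (Cyp2c29, Cyp2c37, Cyp2c54, Cyp2c70, Cyp2d13, Cyp2f2, Cyp2j5, Cyp2u1 and Cyp3a25). Here the background was 7.06% higher and 4.84% lower, against 8.33% and 18.8% of the 48 members. Calls are edgeR quasi-likelihood tests with a Benjamini-Hochberg adjusted p under 0.05 over all 14379 genes. Only 2 samples per group were available, and nothing in the labels says how they were collected. The p-values therefore only set each difference against the spread between these samples, estimated over all 4 groups. With only the 4 samples of a comparison in the fit, 7 members were called higher and 10 lower in fasted liver, against 8.24% and 6.31% of all genes, and 0 and 0 in refed liver, where 0% of all genes were called. DESeq2 called 6 and 7 in fasted (background 4.35% and 3.21%) and 7 and 17 in refed liver (12.3% and 10.9%). Scaling by library totals gave 4 and 2 in fasted (5.83% and 0.327%) and 6 and 4 in refed liver (13.7% and 1.97%), so the share of members called higher in refed liver, 12.5%, was below that of all genes. An exact permutation test of 2 against 2 could not go below p = 0.333.

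The steepest rise was that of Cyp2b13, a female-predominant member of the 2b subfamily. Cyp2b13 was at 0 and 0.0243 CPM in fasted WT, 16.5 and 20.2 in fasted HRD1Alb, 0 and 0.0263 in refed WT and 6.87 and 12.5 in refed HRD1Alb liver. The WT livers held 0 and 1 count in each condition and the HRD1Alb livers 6.87 CPM or more, so the groups were far apart. With 1955 counts against 1 in fasted liver, the ratio was 1494 (95% interval 268 to 59057), and with 976 against 1 in refed liver it was 732 (95% interval 131 to 28950.3). These 95% intervals are exact and cover counting error only. The single WT count of each condition was in replicate 2, so without that library the WT level was 0. edgeR gave Cyp2b13 an adjusted p of 0.00727 (fasted) and 0.00271 (refed). It passed the count filter only through the HRD1Alb libraries, so these p-values describe the gap and add no separate support.

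Its neighbour Cyp2b9, whose upstream 250 bases are nearly the same, was at 0.698 and 21.8 CPM in fasted WT, 193 and 162 in fasted HRD1Alb, 0.445 and 11.8 in refed WT and 184 and 179 in refed HRD1Alb liver. All 4 HRD1Alb values lay above all 4 WT values. The WT libraries with the number 2 were far above those with the number 1 in both conditions, and neither difference was called (log2 3.98 ± 1.58 (SE), edgeR adjusted p = 0.241 in fasted and log2 4.89 ± 1.66 (SE), edgeR adjusted p = 0.0912 in refed liver). Fasted WT replicate 2 held 21.8 CPM of Cyp2b9 but only 0.0243 CPM of Cyp2b13, so at most a small part of the Cyp2b9 reads was counted on Cyp2b13 there.

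Cyp2b10 is the classical target of the receptor CAR and is induced by phenobarbital-like drugs. Its level was 72.5 and 62 CPM in fasted WT, 236 and 120.2 in fasted HRD1Alb, 23.6 and 17.9 in refed WT and 181 and 85.9 in refed HRD1Alb liver. Every HRD1Alb liver exceeded every WT liver, and the refed WT livers were the lowest. The refed difference was called (log2 2.68 ± 0.44 (SE), edgeR adjusted p = 0.0166, a 6.43-fold difference), and the fasted one was not (log2 1.40 ± 0.42 (SE), edgeR adjusted p = 0.145). The refed log2 difference was 2.06 without HRD1Alb refed replicate 1 and 3.13 without replicate 2. The interaction of genotype with feeding was not called either (log2 1.28 ± 0.59 (SE), edgeR adjusted p = 0.599), so the fasted and refed differences are not shown to differ.

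Cyp2a22, a less studied copy in the coumarin hydroxylase subfamily, was at 1.72 and 3.94 CPM in fasted WT, 152 and 119.6 in fasted HRD1Alb, 6.25 and 14.1 in refed WT and 256 and 195 in refed HRD1Alb liver. Groups did not overlap in either condition. Levels were 47.9-fold higher in fasted (log2 5.58 ± 0.55 (SE), edgeR adjusted p = 0.0142) and 22.1-fold higher in refed HRD1Alb liver (log2 4.47 ± 0.52 (SE), edgeR adjusted p = 0.00872). Without WT replicate 2 of the condition the log2 differences were 6.33 and 5.17, and without WT replicate 1 they were 5.11 and 4.00. Its close copy Cyp2a12, a steroid hydroxylase, shared 13.4% of the 75-base windows of Cyp2a22 and was at 455 and 521 CPM in fasted WT, 585 and 563 in fasted HRD1Alb, 534 and 496 in refed WT and 638 and 699 in refed HRD1Alb liver. Cyp2a12 was abundant in WT liver, where Cyp2a22 reached at most 14.1 CPM, and its own genotype differences of 0.23 and 0.38 (log2) were not called (edgeR adjusted p = 0.489 and 0.144).

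Cyp2a4, a female-predominant testosterone hydroxylase, was at 0.573 and 5.86 CPM in fasted WT, 204 and 72.3 in fasted HRD1Alb, 0.321 and 3.47 in refed WT and 24.3 and 49.4 in refed HRD1Alb liver. Of its 75-base windows, Cyp2a4 shared 22.1% with other genes, and 21% with Cyp2a5. The HRD1Alb values exceeded all WT values, with wide spread inside each group. The edgeR adjusted p was 0.0945 in fasted and 0.0684 in refed liver, at log2 differences of 5.42 ± 1.32 (SE) and 4.29 ± 1.27. Cyp2a5, the coumarin hydroxylase that shared 25.5% of its 75-base windows with other genes, was at 311 and 156 CPM in fasted WT, 362 and 315 in fasted HRD1Alb, 195 and 216 in refed WT and 308 and 388 in refed HRD1Alb liver. Within each condition its HRD1Alb values lay above its WT values, and across conditions the genotypes overlapped. Neither difference was called (edgeR adjusted p = 0.414 in fasted and 0.139 in refed liver).

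Cyp2c55, which is better known from colon than from liver, was at 2.69 and 1.75 CPM in fasted WT, 10.4 and 8.42 in fasted HRD1Alb, 4.42 and 3.07 in refed WT and 13.9 and 10.3 in refed HRD1Alb liver. Levels were low in all livers, 4.23-fold higher in fasted and 3.22-fold higher in refed HRD1Alb liver, without overlap. Both differences were called (log2 2.08 ± 0.32 (SE), edgeR adjusted p = 0.0363 in fasted, log2 1.69 ± 0.31 (SE), edgeR adjusted p = 0.0219 in refed liver). None of the 75-base windows of Cyp2c55 occurred in another gene. Cyp3a44, a female-predominant copy next to Cyp3a11, was at 0.623 and 0.803 CPM in fasted WT, 7.02 and 2.92 in fasted HRD1Alb, 0.469 and 0.473 in refed WT and 1.3 and 2.37 in refed HRD1Alb liver and stayed just outside the threshold in both conditions (edgeR adjusted p = 0.0521 and 0.0531).

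**Figure D2:**
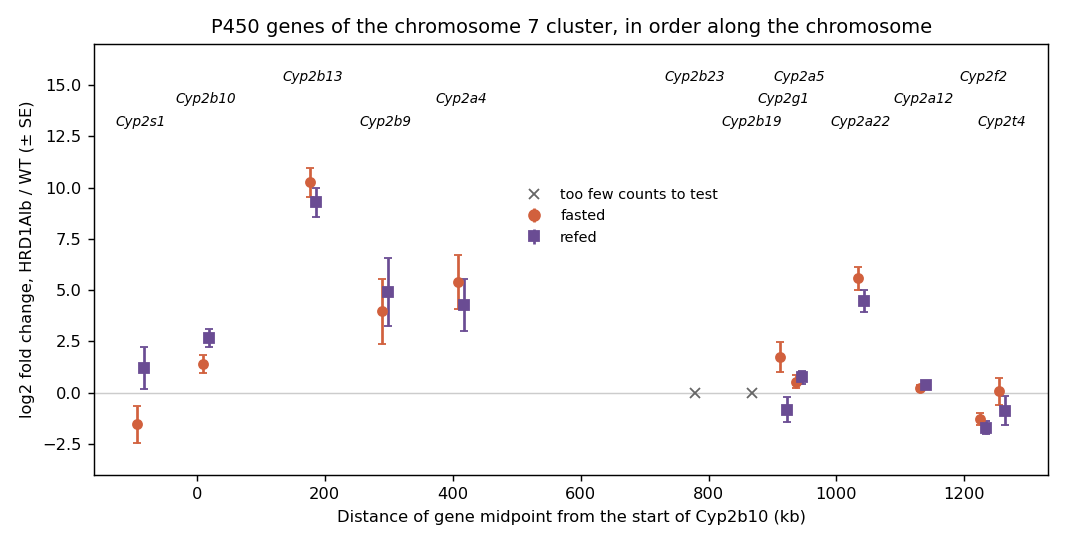
Log2 fold change of HRD1Alb over WT (points, fasted; squares, refed; bars, SE) for the 13 P450 genes along the chromosome 7 stretch, placed by the distance of the gene midpoint from the start of Cyp2b10 in kb; crosses are genes with too few counts to test. Cyp2b10, Cyp2b13, Cyp2b9 and Cyp2a4 lie in a row above 0, although Cyp2b9 and Cyp2a4 were not called, Cyp2a22 stands above its neighbours Cyp2a5 and Cyp2a12, and Cyp2f2 near the far end is below 0.

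One stretch of chromosome 7 holds 13 of the members, of which Cyp2b23 and Cyp2b19 were not tested. In fasted liver Cyp2b13 and Cyp2a22 were called higher. In refed liver Cyp2b13, Cyp2a22 and Cyp2b10 were called higher and Cyp2f2 lower. Of all tested genes, 0.904% were called higher and 0.431% lower in fasted, and 7.06% and 4.84% in refed liver. In order along the chromosome the 13 members are Cyp2s1, Cyp2b10, Cyp2b13, Cyp2b9, Cyp2a4, Cyp2b23, Cyp2b19, Cyp2g1, Cyp2a5, Cyp2a22, Cyp2a12, Cyp2f2 and Cyp2t4. Their midpoints lie from -87.9 to 1259 kb relative to the start of Cyp2b10. Cyp2s1, at the near end, was at 0.249 and 2.68 CPM in fasted WT, 0.528 and 0.472 in fasted HRD1Alb, 0.272 and 0.131 in refed WT and 0.525 and 0.417 in refed HRD1Alb liver. Its fasted libraries overlapped, its low values rested on 5 to 110 counts, and it was not called (log2 -1.55 ± 0.89 (SE), edgeR adjusted p = 0.415 in fasted, log2 1.21 ± 1.03 (SE), edgeR adjusted p = 0.419 in refed liver). Cyp2b23 and Cyp2b19, between Cyp2a4 and Cyp2g1, had at most 1 count in any library. Cyp2f2, an enzyme of airway and liver that activates naphthalene, lies beyond Cyp2a12 and differed in the other direction. It was at 1122 and 860.2 CPM in fasted WT, 349.9 and 469.9 in fasted HRD1Alb, 1428 and 1066 in refed WT and 287 and 480.3 in refed HRD1Alb liver, with no overlap. The difference was called in refed (log2 -1.70 ± 0.31 (SE), edgeR adjusted p = 0.0221) and not in fasted liver (edgeR adjusted p = 0.0939).

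**Figure D3:**
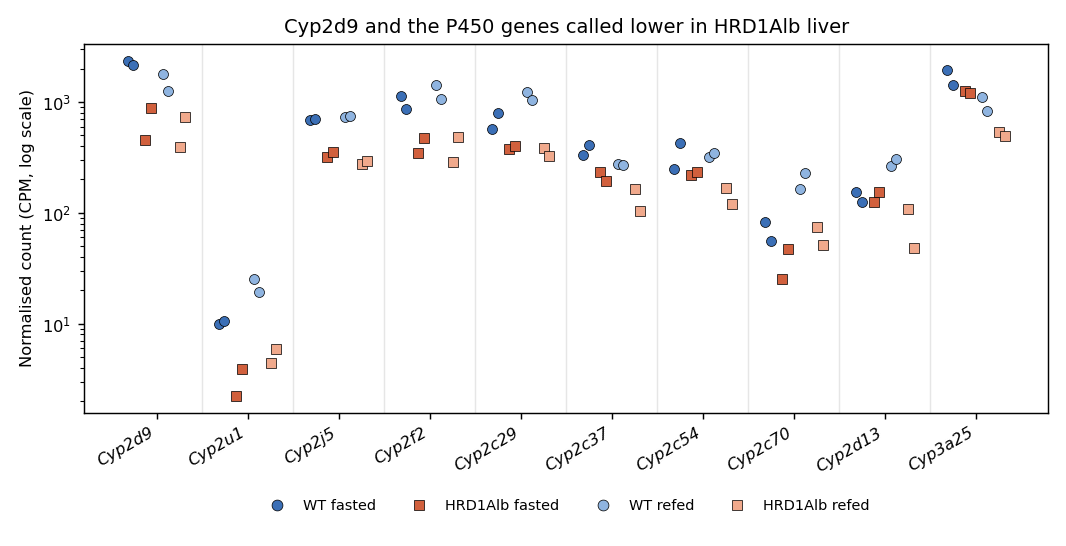
TMM-normalized CPM on a log scale for Cyp2d9 and the 9 members called lower in at least 1 condition, one marker per library (circles, WT; squares, HRD1Alb; dark, fasted; light, refed). Within each condition the genotypes separate for every gene shown except Cyp2d13, which separates only among the refed libraries.

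Cyp2j5, an epoxygenase of arachidonic acid in liver and kidney, was the member called lower in both conditions. It was at 689 and 699 CPM in fasted WT, 321 and 352 in fasted HRD1Alb, 737 and 748 in refed WT and 277 and 294 in refed HRD1Alb liver. Replicates lay close together and the genotypes were well apart. HRD1Alb levels were 2.06-fold lower in fasted (log2 -1.04 ± 0.15 (SE), edgeR adjusted p = 0.0328) and 2.6-fold lower in refed liver (log2 -1.38 ± 0.15 (SE), edgeR adjusted p = 0.00815). Cyp2j5 shared no 75-base window with another gene. The other tested 2j members, Cyp2j6 and Cyp2j9, were at 51.1 to 92.5 and 8.62 to 24 CPM over the 8 libraries and were not called.

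Cyp2d9 is a male-predominant testosterone hydroxylase and Cyp2u1 a fatty acid hydroxylase. Cyp2d9 was at 2359 and 2155 CPM in fasted WT, 451 and 877 in fasted HRD1Alb, 1793 and 1270.5 in refed WT and 396 and 730.2 in refed HRD1Alb liver. Cyp2d9 shared 16.7% of its 75-base windows with other genes. All HRD1Alb values lay below all WT values, and the replicates of HRD1Alb differed almost 2-fold. Neither difference was called (log2 -1.77 ± 0.40 (SE), edgeR adjusted p = 0.0835 in fasted, log2 -1.44 ± 0.40 (SE), edgeR adjusted p = 0.0572 in refed liver). Cyp2u1 was at 9.99 and 10.5 CPM in fasted WT, 2.23 and 3.92 in fasted HRD1Alb, 25.2 and 19.2 in refed WT and 4.42 and 5.88 in refed HRD1Alb liver. Again the genotypes did not overlap, and the WT level was higher in refed than in fasted liver. The refed difference of Cyp2u1 was called (log2 -2.11 ± 0.31 (SE), edgeR adjusted p = 0.0134, 4.31-fold lower) and the fasted one lay at the threshold (log2 -1.73 ± 0.31 (SE), edgeR adjusted p = 0.0508).

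Some of these genes are known for a bias between the sexes. A list of 8 female-biased P450 genes (Cyp2a4, Cyp2b9, Cyp2b10, Cyp2b13, Cyp2c40, Cyp2c69, Cyp3a16 and Cyp3a44) and a list of 2 male-biased ones (Cyp2d9 and Cyp2u1) were used, and because the genes were listed with earlier results of these libraries known, they are a description. Of the 8 female-biased genes, 1 was called higher in fasted and 2 in refed liver, against 0.904% and 7.06% of all genes. In either condition 0 were called lower, against 0.431% and 4.84% of all genes. The median log2 differences of the list were 2.10 and 2.32 against -0.02 and 0.05 for all genes. Of the 2 male-biased genes, 0 were called lower in fasted liver and 1 in refed liver, against 0.431% and 4.84% of all genes. Cyp3a16 was at 0.158 to 0.399 CPM over the 8 libraries with overlapping groups. Cyp2c40 was at 3.96 and 13.1 CPM in fasted WT, 14.5 and 5.79 in fasted HRD1Alb, 17.2 and 22.9 in refed WT and 7.36 and 4.37 in refed HRD1Alb liver, and Cyp2c69, whose 75-base windows were shared at 43.2% with other genes, at 2.17 and 10.4 CPM in fasted WT, 7.9 and 3.34 in fasted HRD1Alb, 12 and 12.7 in refed WT and 6.72 and 2.52 in refed HRD1Alb liver. For both, the refed values labelled HRD1Alb lay below the refed WT values, the fasted ones overlapped, and neither was called. Cyp2c40 shared 57.1% of its 75-base windows with other genes. Y-linked Ddx3y was at 55.2 to 121 CPM and Xist at 0.0988 to 0.508 CPM over the 8 libraries, so all libraries carried Y-linked RNA and little Xist.

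The 2c subfamily, with 15 genes the largest, held 4 of the 9 members called lower in the refed comparison. Cyp2c29, an arachidonic acid epoxygenase and one of the abundant members, was at 574 and 794 CPM in fasted WT, 377 and 402 in fasted HRD1Alb, 1243 and 1041 in refed WT and 385 and 327 in refed HRD1Alb liver. In WT the refed livers held more than the fasted ones, while the HRD1Alb livers held about the same in both. The refed genotype difference was log2 -1.68 ± 0.21 (SE), edgeR adjusted p = 0.0106, 3.21-fold lower, and the fasted one was not called (log2 -0.81 ± 0.21 (SE), edgeR adjusted p = 0.109). The interaction had a log2 size of -0.87 and an edgeR adjusted p of 0.571.

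Cyp2c37, Cyp2c50 and Cyp2c54 are close epoxygenase copies that shared 13.8%, 17.8% and 14.1% of their 75-base windows with other genes. Cyp2c37 was at 329.6 and 412 CPM in fasted WT, 235 and 194 in fasted HRD1Alb, 277 and 271 in refed WT and 163 and 105 in refed HRD1Alb liver, and Cyp2c54 at 249.6 and 423 CPM in fasted WT, 219 and 232 in fasted HRD1Alb, 319 and 345 in refed WT and 169 and 119 in refed HRD1Alb liver. Both were lower in all HRD1Alb libraries than in all WT libraries, and both were called in refed liver (log2 -1.04 ± 0.24 (SE), edgeR adjusted p = 0.0393 and log2 -1.20 ± 0.28 (SE), edgeR adjusted p = 0.0382). Cyp2c50 was at 559 and 801 CPM in fasted WT, 473 and 483 in fasted HRD1Alb, 721 and 664 in refed WT and 446 and 341 in refed HRD1Alb liver, also without overlap, and was not called (edgeR adjusted p = 0.283 and 0.056).

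Cyp2c70, which makes the muricholic acids of rodents, was at 83.1 and 55.1 CPM in fasted WT, 25.1 and 47.5 in fasted HRD1Alb, 163 and 227 in refed WT and 74.6 and 50.8 in refed HRD1Alb liver. The HRD1Alb values were below the WT values of the same condition. The refed difference was called (log2 -1.64 ± 0.38 (SE), edgeR adjusted p = 0.0371) and the fasted one was not (edgeR adjusted p = 0.243). Cyp2c44, Cyp2c38 and Cyp2c39 were not called in either condition. Over the 13 tested 2c genes, the median log2 difference was -0.38 in fasted and -0.83 in refed liver, or 0.01 and -0.61 by library totals.

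In the 2d subfamily, Cyp2d13 was called lower in refed liver. It was at 154 and 126 CPM in fasted WT, 125 and 155 in fasted HRD1Alb, 267 and 308 in refed WT and 109 and 47.6 in refed HRD1Alb liver. The fasted libraries overlapped completely, the refed WT libraries were the highest, and HRD1Alb refed replicate 2 was the lowest. The refed difference was log2 -1.88 ± 0.37 (SE), edgeR adjusted p = 0.0261 and the fasted one log2 0.00 ± 0.36 (SE), edgeR adjusted p = 0.999, but the interaction was not called (log2 -1.88 ± 0.51 (SE), edgeR adjusted p = 0.562). Without HRD1Alb refed replicate 1 the refed log2 difference of Cyp2d13 was -2.59, and without replicate 2 it was -1.40. Cyp2d22, Cyp2d26 and Cyp2d40 lay below WT in every HRD1Alb library without a call. Cyp2d10, which shared 26.7% of its windows with other genes, was at 737 and 744 CPM in fasted WT, 445 and 518 in fasted HRD1Alb, 652 and 706 in refed WT and 377 and 747 in refed HRD1Alb liver, and its refed groups overlapped.

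**Figure D4:**
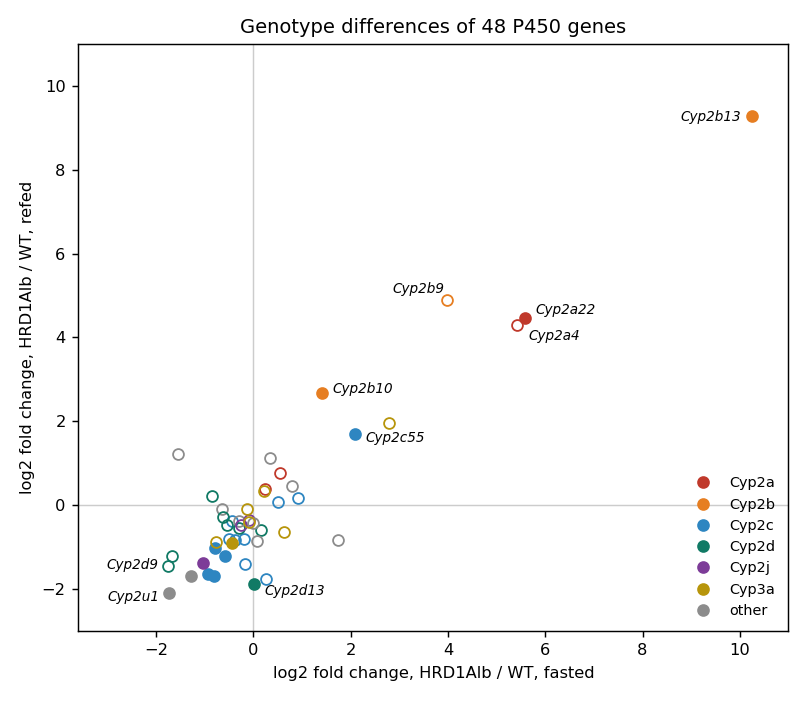
Log2 fold change of HRD1Alb over WT in fasted (x) and refed (y) liver for the 48 tested P450 genes, coloured by subfamily; filled markers were called in at least 1 of the comparisons. Cyp2b13 is at 10.26 and 9.29, fitted values that depend on the prior count, most other genes lie between -2 and 1, and Cyp2d13 lies near 0 on the fasted axis and at -1.88 on the refed one.

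Across all 48 tested members, 8 were higher in every HRD1Alb library than in every WT library (Cyp2a12, Cyp2a22, Cyp2a4, Cyp2b10, Cyp2b13, Cyp2b9, Cyp2c55 and Cyp3a44) and 13 were lower in every one. That is 16.7% and 27.1% of the members, against 11.8% and 9.71% of all tested genes. The 13 were Cyp2c29, Cyp2c37, Cyp2c44, Cyp2c50, Cyp2c54, Cyp2d22, Cyp2d26, Cyp2d40, Cyp2d9, Cyp2f2, Cyp2j5, Cyp2u1 and Cyp3a13. Scaled by library totals, 9 members were higher in every HRD1Alb library and 6 lower in every one (18.8% and 12.5%, against 23.6% and 1.9% of all tested genes). The 6 were Cyp2c29, Cyp2d40, Cyp2d9, Cyp2f2, Cyp2j5 and Cyp2u1, so the genotypes of the other 7 overlapped on that scale. With TMM, the median log2 difference of the members was -0.15 in fasted and -0.46 in refed liver, against -0.02 and 0.05 over all genes. By library totals the medians of the members were 0.24 and -0.23, against 0.36 and 0.26 over all genes, so the fasted median changed sign while both stayed below that of all genes. With TMM, all 3 tested 2b genes and 3 of 4 2a genes were on the higher side, 5 of 13 2c genes, 4 of 8 2d genes and 1 of 3 2j genes on the lower side.

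Cyp2e1 and Cyp3a11, the most abundant members, were not called for genotype. Cyp2e1, which oxidises ethanol and paracetamol in hepatocytes around the central vein, was at 14977 and 15419 CPM in fasted WT, 12141 and 12628 in fasted HRD1Alb, 8636 and 10144 in refed WT and 7175 and 7301 in refed HRD1Alb liver. Its genotype difference was log2 -0.30 ± 0.19 (SE), edgeR adjusted p = 0.463 in fasted and log2 -0.38 ± 0.19 (SE), edgeR adjusted p = 0.199 in refed liver, and the fasted value became 0.09 when libraries were scaled by their totals. Per kb of exon its mean level in fasted WT liver was 7043 CPM, and that of Cyp3a11, the main drug-metabolizing 3a enzyme and a PXR target, was 1724. After these came Cyp2d9 at 849 and Cyp3a25 at 805 CPM per kb. Cyp3a11 was at 9172 and 8389 CPM in fasted WT, 9320.2 and 6664 in fasted HRD1Alb, 7959 and 5304 in refed WT and 6314 and 6061 in refed HRD1Alb liver, and the genotypes overlapped in both conditions. Its log2 differences of -0.14 ± 0.26 (SE) and -0.10 ± 0.26 became positive when libraries were scaled by their totals (0.24 and 0.12). Cyp1a2, the caffeine-metabolizing target of the aryl hydrocarbon receptor, was at 491 and 375 CPM in fasted WT, 256 and 298 in fasted HRD1Alb, 361 and 349 in refed WT and 382 and 285 in refed HRD1Alb liver and was not called (edgeR adjusted p = 0.172 in fasted and 0.78 in refed liver). Cyp1a1, the inducible partner of Cyp1a2, was at 0.219 to 1.68 CPM over the 8 libraries with overlapping groups.

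Cyp3a25, an abundant 3a enzyme, was at 1935 and 1417 CPM in fasted WT, 1267 and 1206 in fasted HRD1Alb, 1099.7 and 829.6 in refed WT and 535 and 499 in refed HRD1Alb liver. Refed HRD1Alb libraries held the lowest values. It was lower in refed HRD1Alb than in refed WT liver (log2 -0.90 ± 0.22 (SE), edgeR adjusted p = 0.0428), and no call was made in fasted liver (edgeR adjusted p = 0.342). Cyp3a13 and Cyp3a59 were not called for genotype.

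**Figure D5:**
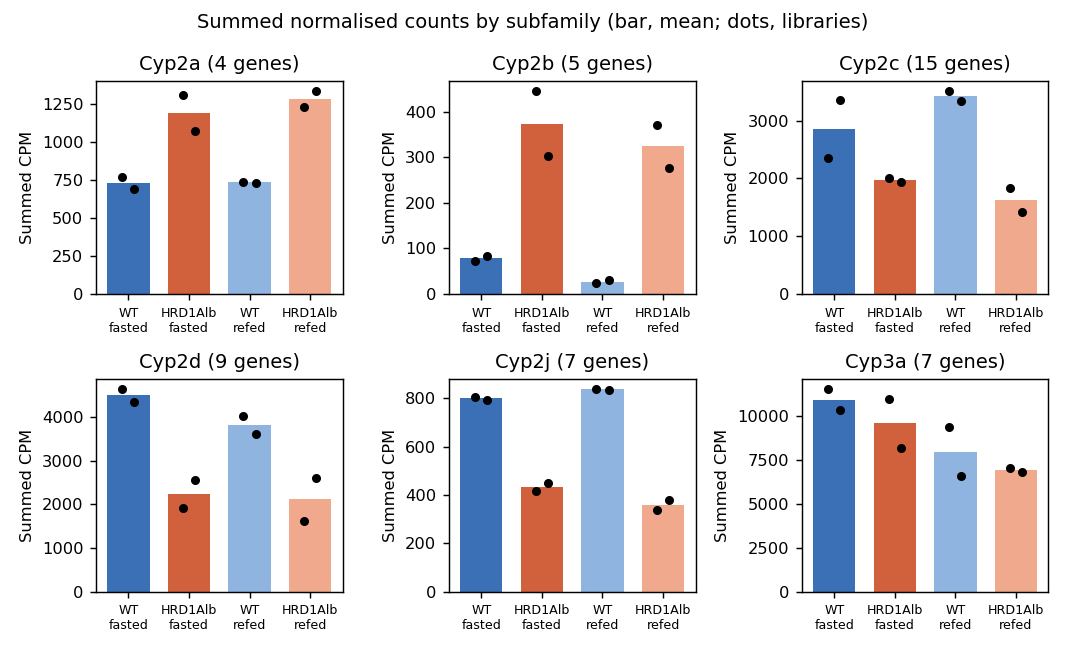
Summed TMM-normalized CPM of the members of 6 subfamilies in the 4 groups; bars are means and dots the 2 libraries of a group, and every axis starts at 0. The 2a and 2b sums are higher and the 2c, 2d and 2j sums lower in HRD1Alb, and the 3a dots overlap between genotypes in fasted and in refed liver.

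Sums over a subfamily keep reads that paralogs may share, and they are given without a test. The 2b sum was 78.5 ± 7.51 CPM in fasted WT and 374 ± 101 in fasted HRD1Alb liver, 26.9 ± 4.05 in refed WT and 325 ± 66.5 in refed HRD1Alb liver (mean ± SD, n = 2). Cyp2b10 took 30.9% to 99% of the 2b counts, depending on the library. The 2a sum was 728 ± 57.7 against 1187 ± 166 CPM in fasted and 733 ± 4.79 against 1278 ± 74.5 in refed liver. These 2 sums were higher in every HRD1Alb library.

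The 2d sum was 4492 ± 214 CPM in fasted WT against 2239 ± 448 in fasted HRD1Alb liver and 3813 ± 281 against 2118 ± 691 in refed liver. The 2j sum was 799.8 ± 7.67 against 434 ± 24.1 in fasted and 836 ± 3.51 against 358 ± 28.1 in refed liver. For 2c the values were 2855 ± 702 against 1976 ± 55.8 and 3423 ± 124 against 1626 ± 287, and for 3a 10954 ± 864 against 9595 ± 1983 and 7979 ± 1974 against 6950.3 ± 168. The 2c, 2d and 2j sums were lower in every HRD1Alb library than in the WT libraries of the same condition, and the 3a sums overlapped. Single genes weighed on these sums. Cyp2j5 took 77.0% to 89.7% of the 2j counts, Cyp2d9 23.5% to 50.8% of the 2d counts and Cyp2c29 18.7% to 35.4% of the 2c counts. Scaled by library totals, the 2d and 2j sums were still lower in every HRD1Alb library, but the fasted 2c sums overlapped (2069.9 and 2804 CPM in WT, 2232 and 2184 in HRD1Alb). On that scale the HRD1Alb to WT ratios for 2c, 2d and 2j remained below 1 (0.906, 0.65 and 0.708 in fasted, 0.56, 0.632 and 0.496 in refed liver), while that of 3a moved from 0.876 to 1.14 in fasted and from 0.871 to 1.02 in refed liver. All 58 members together made up 2.07% to 3.31% of the counts of a library. Their HRD1Alb to WT ratio was 0.79 in fasted liver, or 1.03 by library totals, and 0.741 in refed liver, or 0.862 by library totals.

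By edgeR few members were called after refeeding, at shares near or below those of all genes. In WT liver 0 of 48 members were called higher and 0 lower by edgeR, against 1.2% and 1.39% of all genes, although 7 and 5 members had an unadjusted p under 0.05, DESeq2 called 5 in each direction, against 3.59% and 4.23% of all genes, and limma voom 0, against 0.939% and 1.12%. In HRD1Alb liver 0 were called higher and 2 lower, against 5.42% and 5.01% of all genes. For the higher direction, 1 member had an unadjusted p under 0.05, and DESeq2 and limma voom called 0, against 11.4% and 5.16% of all genes. The 2 lower members were Cyp2e1 (log2 -0.77 ± 0.19 (SE), edgeR adjusted p = 0.0441) and Cyp3a25 (log2 -1.26 ± 0.22 (SE), edgeR adjusted p = 0.018). Their own WT differences were -0.69 and -0.80 (log2), not called, with an edgeR adjusted p of 0.119 and 0.124. Both genes were lower in each refed library than in each fasted library of the same genotype. Without either refed HRD1Alb library, some members were called in both directions in the WT comparison. The share of all genes called in such fits is not given here. In the HRD1Alb comparison, only Cyp3a25 was called lower when any one WT library was left out. Cyp2e1 and Cyp3a25 both lost their calls without either fasted HRD1Alb library, and more members were called lower without either refed HRD1Alb library. No member had a called interaction (0 of 48, against 0% of all genes). There, 3 members had an unadjusted p under 0.05, DESeq2 called 1 (Cyp2d13, against 0.897% of all genes) and limma voom 0. edgeR called some members when HRD1Alb refed replicate 1 was left out.

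Partner proteins of P450s, heme enzymes and regulators of P450 genes were read from lists. For genotype, 0.904% of all genes were called higher and 0.431% lower in fasted, and 7.06% and 4.84% in refed liver. Of 6 partner proteins (Por, Cyb5, Cyb5b, Cyb5r3, Pgrmc1 and Pgrmc2), 0 were called for genotype in either condition. The unadjusted edgeR p was under 0.05 for Pgrmc1 and Pgrmc2 in fasted and for Pgrmc1 in refed liver. After refeeding, 1 of the 6 was called higher (Cyb5b) and 1 lower (Por) in each genotype. Among all genes, 1.2% were called higher and 1.39% lower in WT, and 5.42% and 5.01% in HRD1Alb liver. The Cyb5b differences were log2 0.91 ± 0.17 (SE), edgeR adjusted p = 0.04 in WT and log2 0.78 ± 0.17 (SE), edgeR adjusted p = 0.0312 in HRD1Alb liver. Por, the P450 reductase, was outside the naming rule and was picked after its values were seen. It was at 1043 and 854 CPM in fasted WT, 994 and 846 in fasted HRD1Alb, 402 and 352 in refed WT and 252 and 344 in refed HRD1Alb liver, lower after refeeding in WT (log2 -1.33 ± 0.22 (SE), edgeR adjusted p = 0.0334) and in HRD1Alb liver (log2 -1.63 ± 0.22 (SE), edgeR adjusted p = 0.00873). Of 12 genes of heme synthesis and breakdown, 1 was called for genotype, and higher in both conditions. This was Hmox1, the inducible heme oxygenase, at 10.7 and 11.7 CPM in fasted WT, 34.5 and 30.8 in fasted HRD1Alb, 15.2 and 12.9 in refed WT and 61.6 and 61.9 in refed HRD1Alb liver. The genotype groups of Hmox1 were well apart (log2 1.54 ± 0.16 (SE), edgeR adjusted p = 0.0156 in fasted, log2 2.14 ± 0.17 (SE), edgeR adjusted p = 0.00285 in refed liver). Alas1, the rate-limiting enzyme of heme synthesis, was not called and was also picked after its values were seen, at 478 and 287 CPM in fasted WT, 652 and 532 in fasted HRD1Alb, 300.4 and 310.4 in refed WT and 522 and 1026 in refed HRD1Alb liver.

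Of 13 regulators, 0 were called for genotype in fasted liver and 2 were lower in refed liver, where 4.84% of all genes were called lower. Rxra, the partner of CAR and PXR, was at 475 and 499.6 CPM in fasted WT, 376 and 404 in fasted HRD1Alb, 433 and 423 in refed WT and 259.6 and 294 in refed HRD1Alb liver (log2 -0.63 ± 0.15 (SE), edgeR adjusted p = 0.041 in refed liver). Onecut1, a liver factor that binds many P450 genes, was at 2.64 and 3.85 CPM in fasted WT, 2.46 and 5.21 in fasted HRD1Alb, 11.8 and 13.6 in refed WT and 3.33 and 4.69 in refed HRD1Alb liver (log2 -1.66 ± 0.39 (SE), edgeR adjusted p = 0.039). The refed libraries labelled HRD1Alb were below both refed WT libraries for these 2 genes. Nr1i3 (CAR), Nr1i2 (PXR), Ahr, Hnf4a, Stat5b and Bcl6, a repressor of female-type genes in male liver, were not called. Cux2, a female-type transcription factor, was at 0.329 to 10.8 CPM with overlapping genotypes.

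In bulk liver, fewer cells of a type and less RNA per cell cannot be told apart. The calls below stand against 0.904% of all genes called higher and 0.431% lower in fasted, and 7.06% and 4.84% in refed liver. Summed macrophage markers (Emr1, Clec4f, Cd5l, Marco and Csf1r) were at 81.9 to 94.3 CPM in WT and 192 to 420 CPM in HRD1Alb libraries, and of these 5, 1 was called higher in fasted (Emr1) and 5 in refed liver. Summed stellate markers were at 171 to 342 CPM in fasted WT, 407 to 418 in fasted HRD1Alb, 159.8 to 196 in refed WT and 327 to 437 in refed HRD1Alb liver, with 2 of 6 called higher in refed liver (Des and Col1a1). The lymphocyte list (Ptprc, Cd3e, Cd79a and Ms4a1) summed to 5.45 to 8.42 CPM in WT and 12.2 to 15.9 in HRD1Alb libraries. Of its 4 genes, 1 was called higher in refed liver, and this was Ptprc, which is not limited to lymphocytes. Cholangiocyte and endothelial markers had 0 of 5 called each in both genotype comparisons, with medians of -0.88 and 0.46 and of 0.19 and 0.42 (log2, fasted and refed). Of the 6 hepatocyte markers, 0 were called in fasted and Apob was lower in refed liver, and their sum was 142016 to 158277 CPM in fasted WT, 88256 to 91400.0 in fasted HRD1Alb, 118730.0 to 127401 in refed WT and 68471 to 112207 in refed HRD1Alb liver. No defining marker of these lists was at 0. Their part in the P450 differences was not tested.

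Single libraries carried weight. Without either refed HRD1Alb library, more members were called in both directions in the refed comparison. The share of all genes called in fits with a library left out is not given here. Such shifts are therefore no result about the members. Leaving out either refed WT library left 0 members called in both directions. Leaving out any one of the 4 fasted libraries left 0 called lower and 0 higher in the fasted comparison, except that Cyp2b13 was called without HRD1Alb fasted replicate 1. Without either refed HRD1Alb library, more members were also called in both directions in fasted liver, and without either refed WT library Cyp2j5 lost its fasted call. Without fasted WT replicate 1 or either fasted HRD1Alb library, fewer members were called lower in the refed comparison. Over all 18 alternatives, the refed log2 difference kept its sign for each of the 13 called members. Cyp2a22 ranged from 4.00 to 5.17, Cyp2j5 from -1.64 to -1.16 and Cyp2u1 from -2.33 to -1.89.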

How the data were processed

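Liver RNA-seq of 8 mice in 4 groups was used. The authors deposited raw read counts per gene symbol, 1 file for each sample, without normalization. The submitters' processing notes name cutadapt, STAR, HTSeq, DESeq2 and the build mm10, whereas the published methods name ERANGE for counting and a moderated limma test, and versions, strand setting and read length are not given in the sources used here. Reads of near-identical paralogs may therefore have been dropped or split.

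Genes with at least 10 counts in at least 2 samples were fitted with edgeR 4.0.16 (R 4.3.3, TMM, quasi-likelihood F test, 4 group coefficients, all 8 samples). In each contrast the p-values of the 14379 tested genes received a Benjamini-Hochberg correction, and calls were made at 0.05. Standard errors are the log2 fold change over the square root of F. Statistical steps were tested on simulated data. Alternatives were RLE or library-total scaling (the latter added after seeing the data), DESeq2 1.42.0, limma voom (limma 3.58.1), no filter, filterByExpr, a replicate block, a transcript-length offset, the 4 samples of a contrast and each sample left out. The members and lists were chosen with earlier results of these data known. Named were Syvn1, the members called in any comparison, the 4 members Cyp2b13, Cyp2a22, Cyp2d9 and Cyp2u1, the most abundant member of each subfamily, the prototype inducible genes and listed genes called for genotype. Other members are named for completeness after their values were seen. Positions came from GENCODE M21 (GRCm38, 56 of 58 members matched by symbol) and upstream sequences from RefSeq (GRCm38.p6).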

Additional observations from a re-analysis of the deposited data

How the results depend on the processing

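Low depth did not limit the abundant members. It limits Cyp2b13 in WT liver, the 10 untested members and some tested members with few counts. Among the latter are Cyp2t4, with 2 counts in HRD1Alb refed replicate 2, and Cyp2d12, with 4 counts in HRD1Alb fasted replicate 1. With 2 samples per group, no test for a single deviating sample applies, and no member met the criteria for a closer look.

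Members called higher and lower in HRD1Alb numbered 3 and 1 in fasted and 4 and 9 in refed liver. The higher count in fasted liver was 6 with DESeq2 and 7 with only the 4 samples of the contrast, and the lower count was 2 by library totals, 7 with DESeq2, 3 without a filter, 5 with the length offset, 3 with the length offset and block, and 10 with 4 samples. In refed liver the higher count was 7 with DESeq2 and 0 with 4 samples, and the lower count 4 by library totals, 17 with DESeq2, 18 with the length offset, 18 with offset and block, and 0 with 4 samples. After refeeding in WT, the higher count moved from 0 to 5 (DESeq2), 1 (length offset), 1 (offset and block) and 4 (4 samples), and the lower count from 0 to 5 (DESeq2), 2 (replicate block), 3 (offset and block) and 3 (4 samples). In HRD1Alb liver, the lower count moved from 2 to 4 (DESeq2), 5 (length offset), 5 (offset and block) and 0 (4 samples), and DESeq2 called 1 interaction instead of 0. Leaving out one sample at a time gave ranges of 0 to 7 (higher) and 0 to 10 (lower) in fasted, 0 to 8 and 0 to 16 in refed liver, 0 to 6 and 0 to 4 after refeeding in WT, 0 to 4 and 0 to 10 in HRD1Alb, and 0 to 5 interactions. After refeeding, the fit with 4 samples called 6.74% of all genes higher and 7.18% lower in WT. In HRD1Alb liver DESeq2 called 10.3% of all genes lower, and the fit with 4 samples called 0%. The share of all genes called is not given here without a filter, with the length offset, with a block or with a sample left out. Counts from those fits therefore cannot separate a shift of the members from a shift of all genes. The cause of these shifts was not tested.

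The replicate numbers are shared between groups, but same-numbered samples correlated only weakly in their deviations from the group means (mean r = 0.0723, from 0.0147 to 0.185). With the replicate block the genotype counts were 3 and 1 in fasted and 4 and 7 in refed liver, and after refeeding 0 and 2 in WT and 0 and 3 in HRD1Alb liver. The share of all genes called with this block is not given here.

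By library totals the summed HRD1Alb to WT ratio moved from 0.79 to 1.03 in fasted and from 0.741 to 0.862 in refed liver, and the refed to fasted ratio in WT from 0.762 to 0.843. The median log2 difference of the members turned from -0.15 to 0.24 in fasted liver by library totals. Among the named genes, signs turned only for uncalled ones. By library totals Cyp2e1 was at 0.089 and Cyp3a11 at 0.24 in fasted, and Cyp1a2 at 0.15 and Cyp3a11 at 0.12 in refed liver (log2). With a sample left out, Cyp3a11 ranged from -0.40 to 0.087 in fasted and from -0.36 to 0.23 in refed liver, Cyp1a1 from -0.38 to 0.98 and Cyp1a2 from -0.31 to 0.11 in refed liver. Of the 558 values for single genes, 428 kept their direction and side of the threshold, 97 lost and 25 gained a call, and 8 turned.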
